A study of Homo sapiens with 9 samples.

Results

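The comparison set 6 h of treatment with CHIR99021 against no treatment in Ramos cells, using 6 of the 9 libraries of the series. The 3 treated libraries are those labelled 6 h (replicates 9, 10 and 11) and the 3 controls are those labelled 0 h (replicates 1, 2 and 3). Ramos is an established cell line from an EBV-negative Burkitt lymphoma, a B cell tumour, and both groups are this 1 line. The treated cells had 6 h in 3 µM CHIR99021, a small molecule that inhibits the kinase GSK-3 in both its forms, and the controls had none. The 3 remaining libraries, after 3 h in the same dose, entered the fit and serve below only to ask whether a change differed between the times. The series describes each time as a biological triplicate, and p-values measure the spread between these libraries. The controls were labelled 0 h and no library came from cells kept for 6 h without the drug, so treatment and time in culture cannot be told apart.

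GSK-3 phosphorylates MYC and beta-catenin and so marks them for ubiquitin-dependent degradation, and it also acts on glycogen synthase, on translation initiation and on nutrient signalling. MYC binds DNA with its partner MAX at E-box sites and raises genes of ribosome production, protein synthesis and metabolism, while beta-catenin acts with TCF and LEF factors on genes that include the feedback inhibitor AXIN2. Cells that make more protein also need chaperones in the cytosol and in the endoplasmic reticulum (ER), and the promoters of many chaperone genes carry heat shock elements or ER stress elements. Only RNA was measured here, so the amounts of MYC, beta-catenin and chaperone proteins are not known.

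The 6 libraries held 46359911 to 52759888 reads assigned to genes, and a filter on low counts left 15847 genes for the edgeR test. Levels are given as CPM, reads per 1000000 reads in the tested genes after scaling by TMM factors. On the log2 scale a difference of 1 doubles a level. The leading principal component of log2 CPM separated the groups and held 84.2% of the variance of the 6 libraries. Untreated replicate 3 stood apart from the other untreated libraries, with a chi-square of 33.1 and 29.7 per degree of freedom against replicates 1 and 2, which differed from each other by 1.75. Counting error alone gives about 1 on this measure, so untreated replicates 1 and 2 differed little beyond it. The 6 h libraries differed from one another by 6.15 to 14 on this measure, replicate 10 the most from the other two. All 12 B cell markers were present, and their summed level was 9353 to 9892 CPM in untreated cells and 9663 to 10691 CPM at 6 h. Markers of T and NK cells summed to at most 1.22 CPM, with CD3D, CD8A, CD2 and GNLY at 0 in all 6 libraries. Myeloid markers summed to at most 0.323 CPM, and those of fibroblasts and epithelium to at most 0.0358 CPM. In bulk RNA, fewer cells of a kind and less RNA per cell cannot be told apart.

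The response was broad. At an edgeR adjusted p under 0.05, 11213 of 15847 genes (70.8%) differed, 5660 of them higher (35.7%) and 5553 lower (35%), and the libraries of the groups did not overlap for 71.7% of the genes tested. The median log2 fold change of all genes was 0.02. Rises of at least 2-fold numbered 1020 (6.44%) and falls of that size 2061 (13%), and at a level of at least 4-fold there were 110 and 463. The split turned with the level of the gene: among the 2189 genes with at least 100 CPM in untreated cells, 137 rose and 63 fell at least 2-fold. Genes that rose at least 2-fold held 5.65% ± 0.0265 (SD, n = 3) of the reads in genes in untreated cells and 12.8% ± 0.134 at 6 h, and those that fell at least 2-fold went from 3.36% ± 0.0172 to 1.07% ± 0.0242. These shares need no scaling factor, but the genes were chosen by the same contrast, so they are a description.

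Directions are relative to the TMM scale. With library size alone 3656 genes were higher and 7504 lower (32.8% of those that passed were higher, and the median over all genes was -0.22), and with upper-quartile factors 4352 and 6736 (39.3%, median -0.13), against 50.5% with TMM factors. A group of genes with a median between 0 and about 0.2 on the TMM scale therefore changes sign with the scaling. Where library size alone moved the split of a list by over 10 percentage points, its counts follow in brackets. The sign changed for the medians of the lists of GSK-3 and beta-catenin turnover, MYC turnover, cytosolic ribosomal proteins, tRNA synthetases, unfolded protein response factors, polyamines and iron, glycolysis, cyclins, death receptors, clock genes, NRF2 targets, MHC class I and NF-kappaB. The groups with the largest shifts kept their counts nearly the same with library size alone: 36 of 37 genes of the small subunit processome were higher and 1 lower, and 16 of 20 ER chaperones were higher and 2 lower. The kinds of transcript divided unevenly. Of 561 long intergenic RNAs, 288 fell and 81 rose, and of 1004 antisense transcripts 458 fell and 160 rose. Of 1399 processed pseudogenes 536 rose and 113 fell, and many of them copy highly expressed genes, so reads may be split between copy and source. The strand setting of the counting was not given in the sources used here, and reads of antisense genes and their partners cannot be told apart.

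**Figure D1:**
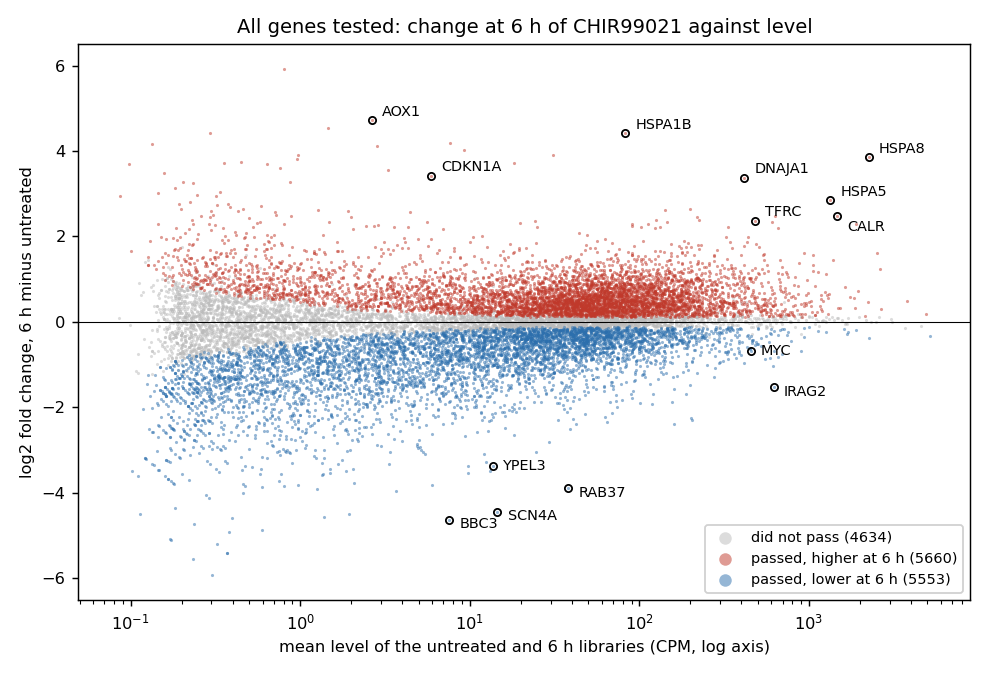
Log2 fold change at 6 h against untreated (vertical axis) and mean level in CPM of the 6 libraries (horizontal log axis) for the 15847 genes tested, 1 point a gene. Points in red (5660) passed and were higher, points in blue (5553) passed and were lower, grey points (4634) did not pass. The labelled chaperone genes HSPA8, HSPA5, CALR and DNAJA1 combine large rises with high levels, while the largest falls lie at lower levels.

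Genes of the inhibited pathway changed in both directions. AXIN2 (ENSG00000168646), the feedback inhibitor of beta-catenin, had 2.24, 1.98 and 1.74 CPM in the untreated libraries and 6.64, 6.30 and 6.92 CPM at 6 h. All 3 treated libraries lay above the controls, and AXIN2 rose 3.33-fold (log2 fold change 1.73, SE of 0.11, edgeR adjusted p = 3.91e-09). GSK3A was at 46.9, 45.3 and 50.1 CPM in the untreated libraries and 80.3, 75 and 72.5 CPM at 6 h and rose 1.60-fold (log2 fold change 0.68, SE of 0.061, edgeR adjusted p = 2.28e-07). GSK3B was at 40.2, 41.6 and 33.3 CPM in the untreated libraries and 33.9, 33.2 and 33.9 CPM at 6 h, and its libraries overlapped (log2 fold change -0.19, edgeR adjusted p = 0.0302). GSK3B did not pass without untreated replicate 1 or 2 or without any 1 of the 6 h libraries (edgeR adjusted p = 0.0635 to 0.142). The beta-catenin gene CTNNB1 was 1.19-fold higher, close in size to the shift between TMM and library size scaling, and with library size alone it did not pass (edgeR adjusted p = 0.789). Of 19 tested genes of GSK-3 and beta-catenin turnover 5 were higher and 6 lower (library size alone: higher 3, lower 11). Of 13 tested genes of Wnt feedback and TCF/LEF 3 rose and 3 fell by 2-fold or more. In all 4 were higher, AXIN2, TCF7 (2.39-fold), ZNRF3 (1.60-fold) and NKD1 (log2 fold change 1.10), and 5 lower, among them the beta-catenin partner LEF1 (log2 fold change -0.40) and the adhesion receptor CD44 (-1.25).

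MYC mRNA itself was lower. MYC (ENSG00000136997) had 541, 548 and 583 CPM in the untreated libraries and 362, 339 and 345 CPM at 6 h, and no treated library reached the lowest control. It fell by 0.68 on the log2 scale (SE 0.052, edgeR adjusted p = 4.5e-08). Its partner MAX was higher, by 1.43-fold. MXD3 and MXI1 encode proteins that compete with MYC for MAX, and both fell. MXD3 went from 53.1, 56.7 and 64.3 CPM to 14.9, 14.7 and 12.7 CPM, a 4.11-fold fall (edgeR adjusted p = 8.63e-11), and MXI1 from 29.8, 29.1 and 27.3 CPM to 7.81, 7.55 and 7.17 CPM, a 3.82-fold fall (edgeR adjusted p = 2.71e-11). Of 12 tested genes of the MYC network, 2 were higher and 7 lower, with a median of -0.49 (5 higher and 7 lower with GC and length trends removed). Among genes of MYC turnover, 6 of 15 were higher and 2 lower (library size alone: higher 3, lower 5). The nucleolar deubiquitinase USP36, which acts on MYC, rose 2.57-fold, the ubiquitin ligase component SKP2 rose 1.67-fold, the phosphatase inhibitor SET rose 1.60-fold, and the deubiquitinase USP28 fell 1.72-fold.

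Genes that build ribosomes were higher almost without exception. The small subunit processome assembles on the nascent ribosomal RNA, and 36 of its 37 tested genes were higher and none lower, with a median of 1.22 and 27 of them at least 2-fold. IMP4 did not pass (log2 fold change -0.08) on the TMM scale and was called lower with upper-quartile factors and with library size alone; like the other list members named below as exceptions, it was picked after its value was seen. All 34 tested genes of large (60S) subunit assembly were higher (median 1.11, lowest 0.33, highest 1.78). RRP12 (ENSG00000052749), a pre-ribosome export factor, had 30.8, 32.1 and 29.4 CPM in the untreated libraries and 160.1, 142 and 151 CPM at 6 h, all treated libraries far above the controls (4.91-fold; log2 fold change 2.29, SE of 0.06, edgeR adjusted p = 2.3e-12). NOL6, a component of the processome, went from 48.3, 48.2 and 42.9 CPM to 224, 213 and 218 CPM and rose 4.70-fold (edgeR adjusted p = 1.51e-12). The RNA helicase DHX37 rose 3.57-fold, PES1 of the large subunit pathway 3.37-fold and the rRNA methyltransferase NOP2 3.04-fold. Of 16 snoRNP proteins, which guide and carry out rRNA modification, 14 were higher and 1 lower (RUVBL1, log2 fold change -0.30), with DKC1 2.53-fold, NOLC1 2.53-fold and NOP56 2.41-fold higher. Of 35 genes of RNA polymerases I and III and their factors, 30 were higher and 2 lower (POLR1D -0.19 and POLR3GL -0.57 on the log2 scale).

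POLR1G, a subunit of RNA polymerase I, showed the largest rise of that polymerase list. It was at 7.59, 8.17 and 8.05 CPM in the untreated libraries and 42.6, 39.2 and 40.8 CPM at 6 h, with no overlap (5.15-fold; log2 fold change 2.36, SE of 0.059, edgeR adjusted p = 1.51e-12). The large subunit list and the processome list had E-boxes in many of their promoters. RefSeq promoter windows (GRCh38.p14, 250 bases before to 50 after the start) were matched by symbol for 10233 of the 14124 tested genes with a symbol. The letters CACGTG, which read the same on both strands, were in 10.3% of these windows, in 18.5% of the 567 windows of genes at least 2-fold higher and in 7.56% of the 1296 of genes at least 2-fold lower. For the processome they were in 16 of 32 windows (50%) and for the large subunit list in 11 of 29 (37.9%). The stretches of 150 bases before the start of POLR1G (chr19:45406494-45406643, plus strand) and of the processome gene UTP20 (chr12:101279955-101280104, plus strand; log2 fold change 2.25, SE of 0.1, edgeR adjusted p = 2.99e-09) are shown because the E-box, in capitals, lies within 12 bases of the start in both.
POLR1G: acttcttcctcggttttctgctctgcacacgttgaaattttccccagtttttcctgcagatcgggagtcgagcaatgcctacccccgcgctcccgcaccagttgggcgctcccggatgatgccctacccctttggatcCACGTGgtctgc
UTP20: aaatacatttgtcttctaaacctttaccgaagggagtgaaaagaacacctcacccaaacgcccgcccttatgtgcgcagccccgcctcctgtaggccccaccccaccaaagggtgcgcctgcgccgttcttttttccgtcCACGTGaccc
A match is a description of the sequence, and binding was not measured.

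The ribosome's own proteins did not share this change. Of 75 tested cytosolic ribosomal proteins 26 were higher, 3 lower (RPL3, RPL13A and RPL22, of which RPL22 did not pass without treated replicate 10) and 46 did not pass, with a median of 0.11. This group changes sign with the scaling: with library size alone 3 were higher and 19 lower (median -0.13). Untreated replicate 3 also bears on it, since these genes held 6.19% of its reads against 5.22% and 5.29% in replicates 1 and 2 and 4.83% to 5.23% at 6 h, and without that library 55 of the cytosolic ribosomal proteins were higher and 3 lower. Without untreated replicate 1 or 2, or without treated replicate 9, 15 were higher and 4 lower. RPL13A fell 1.46-fold, from 539, 546 and 629 CPM to 425, 366 and 387 CPM. Translation initiation factors were higher in 30 of 39 and lower in 8, with a median of 0.53. The scaffold EIF4G1 was at 766, 761 and 681 CPM in the untreated libraries and 2087, 1981 and 1997 CPM at 6 h (2.75-fold; log2 fold change 1.46, SE of 0.054, edgeR adjusted p = 3.89e-11), and its relative EIF4G2 rose 2.96-fold. The elongation factor EEF2 went the other way, from 5698, 5727 and 5819.6 CPM to 4871, 4356 and 4539.6 CPM, and lost more CPM than any other gene that passed, although its fold was only 1.25-fold. Cytosolic tRNA synthetases and their scaffold were divided, with 8 of 22 higher and 8 lower (library size alone: higher 8, lower 13). FARSA rose 2.49-fold and RARS1 2.06-fold, while WARS1 fell 1.82-fold, from 719, 716 and 709.7 CPM to 403, 378 and 398 CPM.

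The largest rises among abundant genes were in chaperones: of the genes with at least 50 CPM in untreated cells, HSPA8, DNAJA1 and HSPA5 had the 3 highest folds. HSPA8 (ENSG00000109971), the constitutive HSP70 that folds new proteins, was at 293, 287 and 287 CPM in the untreated libraries and 4228, 4036 and 4358 CPM at 6 h. The treated libraries lay more than 10-fold above the controls, and HSPA8 rose 14.6-fold (log2 fold change 3.87, SE of 0.051, edgeR adjusted p = 6.31e-15) and gained more CPM than any other gene that passed. Its inducible relative HSPA1B went from 6.76, 7.36 and 8.10 CPM to 165, 149 and 161 CPM (21.4-fold), with reads that may be shared with the near-identical HSPA1A (17.5-fold). DNAJA1, the J-domain partner of HSP70, went from 72.8, 72 and 73.8 CPM to 761, 712 and 802 CPM and rose 10.4-fold (edgeR adjusted p = 5.85e-14). The exchange factor HSPH1 rose 5.21-fold and DNAJB1 6.22-fold.

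Of 12 tested genes of the HSP70, HSP110 and small heat shock families 11 were higher and 1 lower (HSPB6, log2 fold change -1.84), and of 25 J-domain and BAG co-chaperones 21 were higher and 2 lower (DNAJB2 -0.39 and DNAJB5 -0.18). DNAJB5 was near the threshold and did not pass in DESeq2 (adjusted p = 0.0943) or without untreated replicate 2 or 3, the 3 h replicate 7, or treated replicate 9 or 10. HSP90AA1, the inducible HSP90, was at 654, 652 and 613 CPM in the untreated libraries and 3124, 2939 and 3337 CPM at 6 h (4.90-fold; log2 fold change 2.29, SE of 0.061, edgeR adjusted p = 2.35e-12), and HSP90AB1 rose 2.37-fold. Among the helpers of HSP90, CHORDC1 rose 4.68-fold, STIP1 3.65-fold, AHSA1 2.94-fold and FKBP4 2.38-fold. Of the 20 genes of that list 15 were higher and 1 lower (FKBP8, -0.37; library size alone: higher 13, lower 4). The TRiC chaperonin folds actin and tubulin, and 14 of 16 genes of TRiC and its partner prefoldin were higher and none lower, with CCT2 2.42-fold and CCT3 2.20-fold higher. The clients ACTB and TUBB were themselves among the 10 genes that gained the most CPM, with folds of 1.41-fold and 1.66-fold. The proteasome followed, with 35 of 39 genes higher, 2 lower (among them the transcription factor NFE2L1, log2 fold change -0.91) and a median of 0.62. PSMC3 of the base rose 2.28-fold and the activator PSME3 2.09-fold. Reads of HSPA8 pseudogenes rose too (HSPA8P7 15.1-fold, HSPA8P1 13.3-fold), and reads of the parent gene may have been assigned to them.

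A heat shock element of 3 alternating units (GAA, TTC with 2 bases between, both strands searched) was in 29 of the 10233 windows (0.283%). It was in 3 of 56 windows of genes at least 4-fold higher (5.36%), those of HSPA8, DNAJA1 and CHORDC1, and in none of the 278 of genes at least 4-fold lower. Most windows of the cytosolic chaperone lists held no exact match. Elements that differ by a base or lie outside the window were not searched for. The element was in 1 of 10 for the HSP70, HSP110 and small heat shock families. For J-domain and BAG co-chaperones it was in 2 of 22, and for the HSP90 list in 1 of 16. The 150 bases before the start of HSPA8 (chr11:123062137-123062286, minus strand, GRCh38.p14, RefSeq) are shown with 1 of its 2 elements in capitals, 43 to 55 bases before the start.
HSPA8: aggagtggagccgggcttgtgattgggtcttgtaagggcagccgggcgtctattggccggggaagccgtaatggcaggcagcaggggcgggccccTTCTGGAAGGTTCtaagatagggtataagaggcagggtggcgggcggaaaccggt

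The ER made the other large block. HSPA5 (ENSG00000044574), the ER chaperone BiP, was at 325, 327 and 323 CPM in the untreated libraries and 2425, 2214 and 2422 CPM at 6 h (7.25-fold; log2 fold change 2.86, SE of 0.051, edgeR adjusted p = 7.49e-14). CALR, a chaperone of glycoproteins that stores calcium, had 429, 442 and 456 CPM in the untreated libraries and 2615, 2306 and 2479 CPM at 6 h (5.58-fold; edgeR adjusted p = 9.63e-13). Neither gene's groups overlapped, and the spread within each group was a small part of the difference. HSP90B1, the HSP90 of the ER, went from 194, 192 and 186 CPM to 1091, 1017 and 1106 CPM (5.61-fold). HYOU1, an exchange factor for BiP, rose 4.56-fold and the J-domain partner DNAJB11 4.66-fold. Of 20 ER chaperones 18 were higher and 1 lower (SEL1L3, -0.28), with a median of 1.78, the highest of the gene lists here. Plasma cells, which secrete antibody, have a large ER, and of the 8 plasma cell markers, all detected, 7 were tested. JCHAIN, TNFRSF17 and XBP1 were higher and PRDM1, IRF4, CD27 and SLAMF7 lower. SLAMF7 did not pass in DESeq2 (adjusted p = 0.0865) or without untreated replicate 2 or treated replicate 9 or 10. Their summed level was 2562 to 2615 CPM in untreated cells and 3049 to 3318 CPM at 6 h, mostly JCHAIN (1.48-fold higher), and their part in the ER result was not tested.

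Protein disulfide isomerases, which form and reshuffle disulfide bonds, were higher in 12 of 19 genes and lower in 4 (library size alone: higher 9, lower 7). PDIA4 went from 198, 200.1 and 203 CPM to 1053, 966 and 1026 CPM (5.07-fold), and PDIA6, PDIA3 and P4HB rose 3.66-fold, 3.32-fold and 2.61-fold, while ERP29, TMX4, QSOX1 and QSOX2 fell by less than 2-fold. For entry into the ER and degradation from it (ERAD), 34 of 41 genes were higher and 4 lower (among them SEC61A2, SEL1L and EDEM1). The translocation channel SEC61A1 was at 132, 132 and 127 CPM in the untreated libraries and 535, 496 and 523 CPM at 6 h (3.98-fold). Vesicle coats COPII and COPI, which carry cargo between ER and Golgi, were higher in 30 of 32 genes and lower in 1 (COPG2, log2 fold change -0.96), with SEC24D 2.90-fold and ARF4 2.50-fold higher.

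The sensors and factors of the unfolded protein response were divided, with 6 of 17 higher and 7 lower (9 and 6 with GC and length trends removed). XBP1 rose 1.31-fold, while the sensor kinase ERN1 fell 2.09-fold, the stress factor DDIT3 2.06-fold and the phosphatase subunit PPP1R15A 1.67-fold. BHLHA15, a factor of secretory cells also called MIST1, was at 0.662, 0.860 and 0.853 CPM in the untreated libraries and 15.3, 14.7 and 13.5 CPM at 6 h and rose 18.3-fold (edgeR adjusted p = 8.37e-12). An ER stress element (both strands) was in 14 of 10233 promoter windows (0.137%) and in 5 of the 19 windows of ER chaperones (26.3%), those of HSPA5, CANX, HSP90B1, CALR and CRELD2. For protein disulfide isomerases it was in 1 of 17 windows, that of ERO1B, and for ER translocation and ERAD in 0 of 35. The 150 bases before the start are shown for HSPA5 (chr9:125241344-125241493, minus strand), HSP90B1 (chr12:103930260-103930409, plus strand) and CRELD2 (chr22:49918484-49918633, plus strand), in GRCh38.p14 from RefSeq, with the element in capitals (for HSP90B1, 1 of the 2 in its window). CRELD2, named for this, rose as well (log2 fold change 1.89, SE of 0.072, edgeR adjusted p = 4.62e-11).
HSPA5: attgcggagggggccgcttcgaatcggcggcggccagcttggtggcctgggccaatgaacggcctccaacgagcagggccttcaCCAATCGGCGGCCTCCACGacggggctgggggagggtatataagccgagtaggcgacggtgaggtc
HSP90B1: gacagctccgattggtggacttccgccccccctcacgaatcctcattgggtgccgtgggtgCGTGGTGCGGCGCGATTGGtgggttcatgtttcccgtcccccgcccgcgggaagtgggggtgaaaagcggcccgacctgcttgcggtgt
CRELD2: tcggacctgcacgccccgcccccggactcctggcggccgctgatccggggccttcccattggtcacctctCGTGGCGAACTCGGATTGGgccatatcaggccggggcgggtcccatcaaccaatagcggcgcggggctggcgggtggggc

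**Figure D2:**
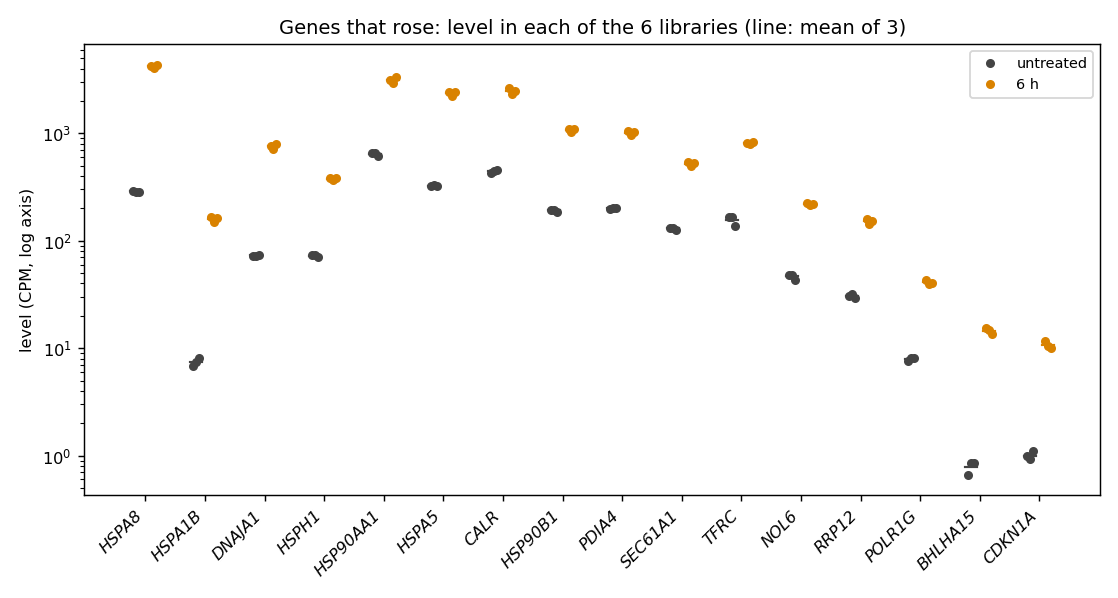
Level in CPM (vertical log axis) of 16 genes that rose, in the 3 untreated libraries (grey) and the 3 libraries at 6 h (orange), 1 point a library with a line at the group mean. In every gene shown the 6 h libraries lie above the untreated ones, from BHLHA15 and CDKN1A near 1 CPM in untreated cells to HSP90AA1 at 639.6 ± 22.9 CPM (SD, n = 3).

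Genes that ATF4 activates under amino acid or ER stress were lower at the same time. Of 31 tested, 26 were lower and 3 higher (ALDH18A1, SLC7A5 and ATF5), with a median of -0.61, and SLC7A5 did not pass with library size alone. CTH, which makes cysteine from cystathionine, was at 66.6, 65.8 and 68.2 CPM in the untreated libraries and 12.5, 14.6 and 14.6 CPM at 6 h, with no overlap (4.81-fold lower; log2 fold change -2.27, SE of 0.062, edgeR adjusted p = 3.05e-12). The amino acid carrier SLC38A2 went from 107, 109 and 93.2 CPM to 21.5, 22.2 and 22.1 CPM (4.70-fold lower), and the gluconeogenic enzyme PCK2 from 237, 241 and 258 CPM to 71.6, 64.7 and 65.2 CPM (3.65-fold lower). DDIT4 and SESN2, inhibitors of mTORC1, fell 3.43-fold and 2.96-fold. MTHFD2, a mitochondrial folate enzyme, lost more CPM than most genes, from 845, 835 and 837 CPM to 482, 445 and 488 CPM (1.78-fold lower). An ATF4 element (TGATGNAA, both strands) was in 5 of 27 promoter windows of this list (18.5%) and in 1.76% of all windows. The 5 were those of ASNS, CHAC1, SLC7A1, ATF3 and SLC3A2, none of the genes named above. Over all genes at least 2-fold lower the share was 2.39%, and over those at least 4-fold lower 2.16%, both near that of all windows.

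Nucleotide and sterol genes were higher in most members, while the polyamine and glycolysis lists were divided. Of 26 nucleotide synthesis genes 21 were higher and 3 lower (library size alone: higher 17, lower 5). The 3 were lower by small amounts (IMPDH2 -0.39, CTPS2 -0.56 and RRM2B -0.24 on the log2 scale). UMPS of the pyrimidine pathway rose 2.65-fold. TFRC, the transferrin receptor for iron uptake, was at 164, 167 and 137 CPM in the untreated libraries and 803, 787 and 833 CPM at 6 h and rose 5.17-fold (log2 fold change 2.37, SE of 0.07, edgeR adjusted p = 6.22e-12). The polyamine and iron list had 9 of 20 genes higher and 6 lower (library size alone: higher 7, lower 8). Its synthetic genes SRM and AMD1 rose 3.22-fold and 2.67-fold and the catabolic oxidase PAOX fell 4.11-fold. Of 33 sterol and fatty acid genes 24 were higher and 4 lower (library size alone: higher 17, lower 8). NSDHL of cholesterol synthesis rose 2.68-fold, FASN, the fatty acid synthase, rose 2.42-fold, and ACSS2, which makes acetyl-CoA from acetate, fell 2.95-fold. Glycolysis and hypoxia genes were divided (18 of 35 higher, 16 lower, median 0.18; library size alone: higher 11, lower 17, median -0.06): LDHA rose 2.28-fold and the lactate carrier SLC16A1 2.03-fold, while PFKFB4 and BNIP3L fell 3.48-fold and 3.18-fold.

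Nuclear genes for mitochondria rose in number but by small amounts. Of 74 mitochondrial ribosomal proteins 63 were higher and 2 lower (MRPL10 and MRPS33; library size alone: higher 53, lower 8), with a median of 0.51, and MRPL15 rose 2.76-fold. MRPS33 did not pass in DESeq2 (adjusted p = 0.0599) or without any 1 of 6 of the libraries: untreated replicates 2 and 3, 3 h replicates 5 and 7, and treated replicates 9 and 10. Of 71 OXPHOS subunits 54 were higher and 1 lower (NDUFB5, -0.65), with a median of 0.27, and with library size alone 23 were higher and 8 lower. The mitochondrial chaperonin genes HSPD1 and HSPE1 rose 2.25-fold and 2.33-fold. RNA of the mitochondrial genome itself took 2.94% ± 0.154 (SD, n = 3) of reads in untreated cells and 2.43% ± 0.178 at 6 h, and its 15 listed transcripts were 3 higher and 3 lower (library size alone: higher 1, lower 11). Without treated replicate 11, 6 of the mitochondrial RNA list were lower, and without untreated replicate 1 or treated replicate 9 or 10, 2 were. Import and export through the nuclear pore was higher in 25 of 29 genes and lower in 1 (XPOT, -0.15; library size alone: higher 21, lower 4), with TNPO2 2.97-fold and IPO4 3.38-fold higher. XPOT did not pass without untreated replicate 1 or 2 or treated replicate 10 (edgeR adjusted p = 0.0529 to 0.0605). Of 18 SR splicing factors and their kinases 14 were higher and 1 lower (SRPK2, -0.55; library size alone: higher 9, lower 4), and SRSF1 rose 2.25-fold.

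**Figure D3:**
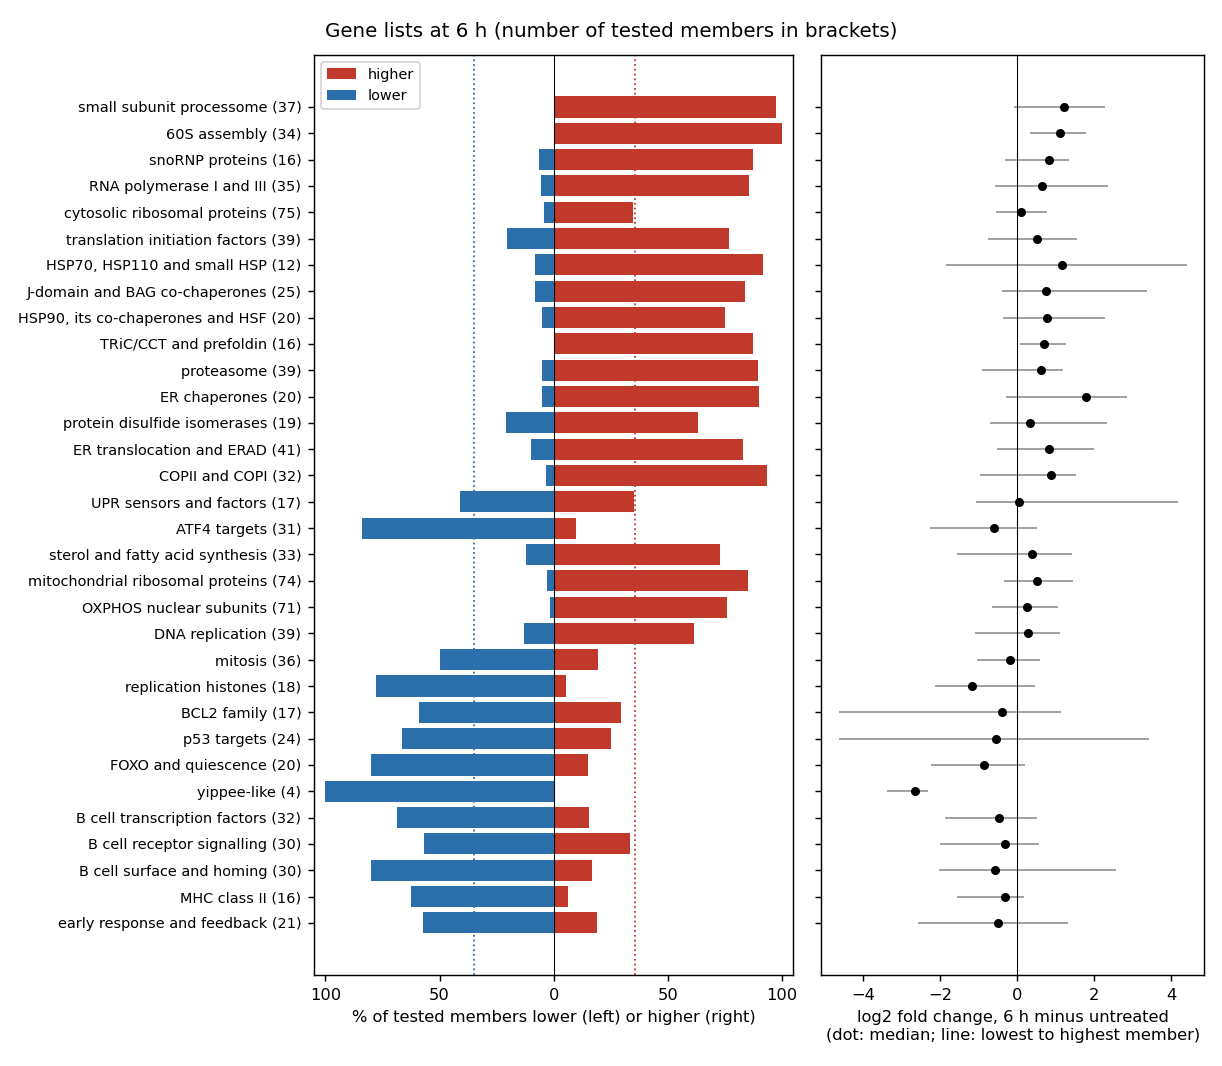
For 32 gene lists, the percentage of tested members that passed and were higher (red, to the right) or lower (blue, to the left) at 6 h, and beside it the median log2 fold change (dot) with the range from the lowest to the highest member (line). Dotted lines mark the shares over all genes tested, 35.7% higher and 35% lower. Ribosome assembly, chaperone, ER and vesicle coat lists lie to the right, and ATF4, FOXO, p53, B cell and yippee-like lists to the left.

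Cell cycle genes gave no single direction. CDKN1A (ENSG00000124762), the kinase inhibitor p21, was at 0.984, 0.929 and 1.09 CPM in the untreated libraries and 11.7, 10.6 and 10.1 CPM at 6 h (10.8-fold higher; log2 fold change 3.43, SE of 0.1, edgeR adjusted p = 5.42e-12). It was the only one of 7 tested CDK inhibitors to rise, and 5 fell, among them CDKN1B, from 53, 55 and 54.4 CPM to 20, 18.1 and 18.7 CPM (2.86-fold lower). CCND3, the main cyclin D of these lists by level, fell 2.44-fold from 389 ± 19 CPM, and its partner kinase CDK4 rose 1.62-fold. Of 39 DNA replication genes 24 were higher and 5 lower (CDT1, GINS2, PRIM1, RFC4 and RPA3), with FEN1 2.19-fold and CDC6 1.95-fold higher, but with library size alone 15 of the DNA replication list were higher and 16 lower. RPA3 did not pass without treated replicate 10 (edgeR adjusted p = 0.0798). Of 36 mitosis genes 7 were higher and 18 lower, with a median of -0.17 (library size alone: higher 2, lower 29, median -0.41). Of 45 listed replication histones only 20 matched an identifier, and 18 were tested, 14 lower and 1 higher (H2BC12, 0.46). Their RNAs lack a poly(A) tail and were at low levels, and the highest of the 3 untreated values of H1-5 came from replicate 3 (2.16, 2.20 and 3.49 CPM, against 0.659, 0.744 and 1.01 CPM at 6 h).

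Several pro-apoptotic genes fell, BBC3 by far the most. BBC3 (ENSG00000105327), which encodes PUMA, was at 13.2, 13.9 and 16.3 CPM in the untreated libraries and 0.723, 0.635 and 0.369 CPM at 6 h. The lowest control stood more than 10-fold above the highest treated library, and BBC3 fell 24.8-fold (log2 fold change -4.64, SE of 0.19, edgeR adjusted p = 2.25e-10). BMF and HRK, also BH3-only genes, fell 2.66-fold and 2.69-fold, while BCL2L11, which encodes BIM, rose 1.73-fold and CYCS, cytochrome c, 2.23-fold. In all, 5 of 17 genes of the BCL2 family were higher and 10 lower (library size alone: higher 3, lower 12). The falls were not limited to pro-apoptotic genes, since the anti-apoptotic BCL2A1 was at least 4-fold lower. Of 24 p53 targets 6 were higher and 16 lower, with a median of -0.54. The largest fall of that list was BBC3 and its largest rise CDKN1A (log2 fold change 3.43), both also counted in other lists above. TP53INP1 went from 55.1, 54.7 and 44.6 CPM to 7.04, 7.42 and 7.64 CPM (6.99-fold lower). The lists of death receptors and caspases were divided (11 of 23 higher, 9 lower, median 0.12; library size alone: higher 7, lower 11, median -0.11). The TRAIL receptors TNFRSF10A and TNFRSF10D, of which the latter is a decoy, rose 1.67-fold and 3.29-fold, the TNF receptor TNFRSF1A fell 3.21-fold, and the caspase inhibitor XIAP rose 1.74-fold.

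Genes of quiescence and FOXO activity were lower in most members. Of 20 tested, 16 were lower and 3 higher (FOXO1, KLF13 and PIK3IP1, each by less than 0.22 on the log2 scale). With library size alone no gene of the FOXO and quiescence list was higher. TSC22D3, a glucocorticoid- and FOXO-responsive gene, went from 104, 99.8 and 107 CPM to 38.4, 34.4 and 36.7 CPM (2.85-fold lower). All 4 tested yippee-like genes, small zinc-binding proteins, were lower. YPEL3 was at 23.9, 23.8 and 27.4 CPM in the untreated libraries and 2.47, 2.43 and 2.33 CPM at 6 h (10.4-fold lower; log2 fold change -3.38, SE of 0.097, edgeR adjusted p = 4.52e-12), and YPEL5, the most abundant of them, went from 70.6, 68.6 and 73.7 CPM to 13.6, 12.7 and 14.4 CPM (5.23-fold lower). The groups did not overlap for any of the 4, which was also so for 71.7% of all genes tested.

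Many genes of B cell identity were lower. The 12 B cell markers themselves divided, with 5 higher and 6 lower (library size alone: higher 3, lower 6), and their share of reads was 1.03% to 1.10% in untreated cells and 0.930% to 0.985% at 6 h. BCL6 (ENSG00000113916), the repressor that defines germinal centre B cells, was at 563, 555 and 529 CPM in the untreated libraries and 280.3, 291 and 271 CPM at 6 h (1.95-fold lower; log2 fold change -0.97, SE of 0.048, edgeR adjusted p = 5.45e-10). MEF2B, which works with it, went from 100, 104 and 111 CPM to 30.4, 28.9 and 26.9 CPM (3.65-fold lower), and POU2F2 fell 2.34-fold. BACH2, among the 10 genes that lost the most CPM, was at 845, 823 and 611 CPM in the untreated libraries and 402, 446 and 409.8 CPM at 6 h, with the lowest control in replicate 3, and fell 1.81-fold. Of 32 genes listed with B cell transcription factors 22 were lower and 5 higher (MEF2C, FOXO1, TCF3, ETS1 and KLHL14, the last not itself a transcription factor). Of these 5, MEF2C alone also passed with library size alone (26 lower), and FOXO1 did not pass without treated replicate 10 (edgeR adjusted p = 0.0542).

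B cell receptor signalling had 17 of 30 genes lower and 10 higher (library size alone: higher 2, lower 20; upper-quartile factors: higher 5, lower 19). PTPN6, the phosphatase SHP-1, went from 12.9, 14.2 and 14.9 CPM to 3.74, 3.17 and 3.58 CPM (4-fold lower), RASGRP3 fell 2.27-fold, PIK3CD 1.98-fold and the inhibitory receptor CD22 1.60-fold. Of 30 surface and homing genes 24 were lower and 5 higher. The costimulatory CD86 and CD40 fell 3.80-fold and 2.14-fold. The genes that rose were MS4A1, which encodes CD20 (273, 270.4 and 262 CPM to 513, 517 and 529.5 CPM, 1.94-fold), MME, which encodes CD10 (1.68-fold), CD83 (1.81-fold), TNFRSF17 (1.44-fold) and FCER2 (log2 fold change 2.58). Of the 5 tested Fc receptor-like genes FCRL5 was the one that rose, from 0.948, 1.01 and 0.964 CPM to 3.55, 6.19 and 4.50 CPM (4.85-fold), and FCRL1, FCRL2, FCRLA and FCRLB fell. MHC class II had 10 of 16 genes lower and 1 higher (HLA-DPA1, 0.18, which did not pass with library size alone). Among them were the accessory chains HLA-DOA (2.12-fold lower) and HLA-DOB (2.97-fold lower) and the master regulator CIITA (1.64-fold lower), whereas HLA-DRA did not pass (log2 fold change 0.02). Of 16 MHC class I genes 8 were higher and 4 lower, with HLA-E 2.10-fold lower, ERAP1, which trims peptides, 1.99-fold higher, and a median of 0.15 (library size alone: higher 4, lower 7, median -0.09).

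Signalling outputs moved less uniformly. Of 21 early response and feedback genes 12 were lower and 4 higher (JUNB, SRF, DUSP2 and DUSP5), and JUNB did not pass with the 2 other scalings, in DESeq2 (adjusted p = 0.0507), or without untreated replicate 1 or 2, the 3 h replicate 5 or any 1 treated library. IER2 fell 1.52-fold, and the feedback inhibitor SPRY1 went from 1.45, 1.22 and 1.30 CPM to 0.170, 0.175 and 0.323 CPM. NF-kappaB genes were 10 of 24 higher and 8 lower (median 0.13; library size alone: higher 7, lower 11, median -0.11), with BCL3 4.38-fold lower and TRAF3 3.23-fold higher. Of 21 genes of the interferon response 5 were higher and 10 lower (library size alone: higher 2, lower 13), and 6 lower without treated replicate 10. The antiviral enzymes OAS1 and OAS3 rose 1.53-fold and 1.99-fold, OAS2 fell 1.35-fold, and STAT2, which transmits the interferon signal, fell 2.22-fold.

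Some of the largest changes lay outside these lists. RAB37 (ENSG00000172794), a small GTPase of secretory vesicles, was at 69.7, 72.6 and 72 CPM in the untreated libraries and 5.15, 4.47 and 4.82 CPM at 6 h (14.8-fold lower; log2 fold change -3.89, SE of 0.068, edgeR adjusted p = 7.49e-14). SCN4A, a sodium channel gene of muscle, went from 27.8, 29.4 and 26.3 CPM to 1.45, 1.14 and 1.22 CPM (21.9-fold lower), and CLIP2, a microtubule linker, from 11.2, 11.1 and 11.2 CPM to 0.851, 0.744 and 0.761 CPM (14.1-fold lower). In each of these the treated libraries were all far under the controls. IRAG2, also called LRMP and known in germinal centre B cells, had the largest fold among the 10 genes that lost the most CPM, from 949, 932 and 881 CPM to 316, 309 and 332 CPM (2.89-fold lower). FAM107B fell 2.04-fold and BRI3BP 1.68-fold in the same set. Among the rises, AOX1, an aldehyde oxidase, went from 0.233, 0.189 and 0.148 CPM to 5.17, 5.21 and 4.96 CPM (26.5-fold), TRDC, the T cell receptor delta constant gene, from 0.912, 0.946 and 1.35 CPM to 17.6, 16.9 and 18.1 CPM (16.4-fold), and the kinase LRRK2 from 0.125, 0.172 and 0.0556 CPM to 2.60, 2.50 and 3.37 CPM (23.2-fold). TRDC rose while the summed level of the T and NK markers did not. They summed to 1.19 to 1.22 CPM in untreated cells and 0.766 to 0.915 CPM at 6 h. Of the 11 matched markers 4, CD3D among them, were at 0 in all 6 libraries.

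A few genes crossed from almost no reads, or to almost none. ADAMTSL2, a secreted matrix protein, had 1, 1 and 2 reads in the untreated libraries and 76, 79 and 61 at 6 h. CD28, a costimulatory receptor of T cells, had 3, 3 and 2 reads and then 27, 35 and 28, and PDCD1, which encodes PD-1 and was under the filter for testing, had 0, 0 and 0 and then 12, 14 and 9. In the other direction, the Notch-pathway gene HES7 had 33, 37 and 52 reads in untreated cells and 1, 0 and 1 at 6 h, the glucose carrier gene SLC2A12 43, 33 and 30 and then 1, 0 and 1, and PELI2 39, 38 and 47 and then 0, 1 and 2. A count of 0 allows up to 0.0692 CPM in the shallowest of these libraries, for counting error only, so presence and absence are limits of depth here.

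**Figure D4:**
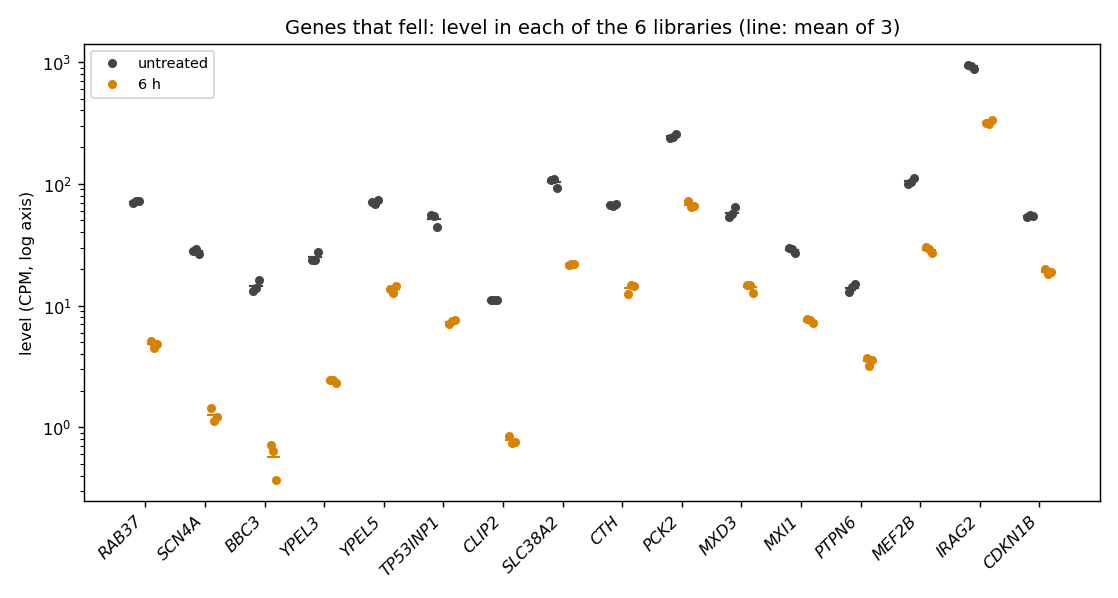
Level in CPM (vertical log axis) of 16 genes that fell, in the 3 untreated libraries (grey) and the 3 libraries at 6 h (orange), 1 point a library with a line at the group mean. In every gene shown the 6 h libraries lie below the untreated ones, with BBC3 and SCN4A at 1.45 CPM or less after treatment and IRAG2 at 309 CPM or more.

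The response at 6 h was not that of 3 h. Both were measured against the same untreated libraries, so the difference was tested between 6 h and 3 h directly: 6871 genes (43.4%) passed, 3402 higher at 6 h (21.5%) and 3469 lower (21.9%). Cytosolic chaperones went further in most members. Of the 12 HSP70, HSP110 and small heat shock genes 9 were higher at 6 h than at 3 h and 3 lower. HSPH1 had a log2 fold change against untreated of 0.91 at 3 h and 2.38 at 6 h, and was 1.47 higher at 6 h than at 3 h (edgeR adjusted p = 2.46e-10). HSPA1B was 2.37 higher (edgeR adjusted p = 6.99e-11) and AHSA1 1.25 higher (edgeR adjusted p = 4.64e-09). Of the HSP90 list 13 of 20 genes were higher at 6 h than at 3 h and none lower, and of the proteasome list 31 of 39 were higher and 2 lower. For OXPHOS subunits the counts were 43 of 71 and 1, and for mitochondrial ribosomal proteins 50 of 74 and 1.

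Most ER chaperones went further too, with 13 of 20 higher at 6 h than at 3 h and 4 lower. Of the 41 genes of ER entry and ERAD 17 were higher and 8 lower. Single genes of the ER and its regulation differed by this test. CALR was 0.97 and PDIA4 0.89 higher on the log2 scale at 6 h than at 3 h, whereas the difference was 0.09 for HSPA5 (edgeR adjusted p = 0.127), 0.05 for SEC61A1 (edgeR adjusted p = 0.384) and -0.05 for BHLHA15 (edgeR adjusted p = 0.707), none of which passed. Many sterol genes and splicing factors were lower at 6 h than at 3 h. None of the 33 sterol and fatty acid genes was higher at 6 h than at 3 h and 23 were lower, with a list median of 0.89 at 3 h and 0.38 at 6 h against untreated. Of the 18 SR factors and kinases 11 were lower at 6 h than at 3 h and 4 higher. SRSF6 stood at 1.91 at 3 h and 0.97 at 6 h (difference -0.95, edgeR adjusted p = 1.16e-08), and TRA2B at 1.25 and 0.47. Among the falls, 28 of 31 ATF4 targets were lower at 6 h than at 3 h and 1 higher. RAB37 was at -1.11 and then -3.89 (difference -2.78, edgeR adjusted p = 2.75e-11), and YPEL3 at -1.23 and then -3.38. BBC3 was at -4.00 by 3 h, and its further difference of -0.63 did not pass (edgeR adjusted p = 0.0787). For MYC mRNA the difference between 6 h and 3 h was -0.36 (edgeR adjusted p = 0.000103), while the processome list had 21 of 37 genes higher at 6 h than at 3 h and 2 lower.

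**Figure D5:**
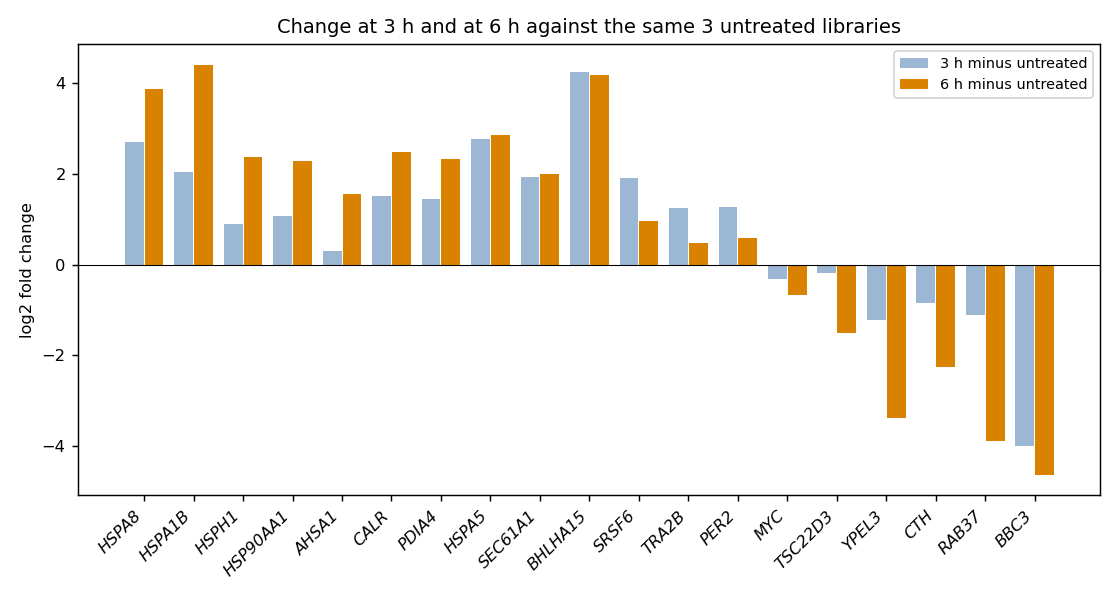
Log2 fold change (vertical axis) of 19 genes at 3 h (blue) and at 6 h (orange), each against the same 3 untreated libraries. Bars for HSPA1B, HSPH1, RAB37 and YPEL3 are longer at 6 h, those for HSPA5, SEC61A1 and BHLHA15 differ little, and those for SRSF6 and TRA2B are shorter.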

How the data were processed

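RNA sequencing libraries of Ramos cells in 3 groups of 3 (untreated, 3 h and 6 h in 3 µM CHIR99021) were used. The authors deposited raw counts of reads per gene. Per the submitters' processing notes, the tools included GSNAP 2015-12-31 and HTSeq 0.6.0 with the build hg19, and limma 3.30.0. The annotation release and the strand setting are not given in the sources used here. The HTSeq summary entries (5) were set aside. Genes passing filterByExpr (minimum count 10, minimum total 15) were fitted over all 9 libraries with TMM factors and edgeR 4.0.16 quasi-likelihood (R 4.3.3), and p-values were adjusted over all genes by the Benjamini-Hochberg method with a threshold of 0.05. Groups came from the labels. The fit was checked on simulated data in which few genes changed, so the scaling under a response as broad as this was not checked. The alternatives used DESeq2 1.42.0 and limma 3.58.1 (voom), other size factors and filters, the 2 groups alone, a minimum fold of 1.2, removal of GC and length trends, and leaving out each library.

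The gene lists and the rule for named genes were chosen with earlier results of these data known. The rule named 8 genes of the pathway and of cell cycle arrest, up to 5 genes of each list with the smallest p, the 15 largest rises and falls, the 10 largest gains and losses in CPM, and 6 genes that came from or went to at most 3 counts. The text gives a part of these. Genes named as exceptions within a list, together with BCL2A1, CRELD2, UTP20, CANX, HLA-DRA, NKD1 and 2 plasma cell markers, were chosen after their values were seen. Symbols came from a gene name table, biotypes from GENCODE release 29, and 41 list entries matched no identifier and were not analysed here. P-values measure only the spread between these libraries. Some results are not reported here.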

Additional observations from a re-analysis of the deposited data

Results flagged for a closer look

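Each of 3 named genes passed at 3 h and at 6 h in opposite directions against the same untreated libraries, with the difference between the times itself passing the edgeR test. OAS1, an antiviral enzyme, had a log2 fold change of -0.14 at 3 h and 0.61 at 6 h, a difference of 0.75 (edgeR adjusted p = 1.18e-07). PPP1R15A, a phosphatase subunit of the stress response, stood at 0.20 and then -0.74, a difference of -0.93 (edgeR adjusted p = 1.12e-07). GINS2, of the replicative helicase, stood at 0.22 and then -0.18, a difference of -0.39 (edgeR adjusted p = 4e-05). Over all genes tested, 257 behaved in this way, 131 of them higher at 6 h than untreated and 126 lower.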

How the results depend on the processing

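The count of 11213 genes that differed between 6 h and untreated cells lay between 8245 (with a tested minimum fold of 1.2) and 11843 (with no filter on low counts) over the alternatives, with 10761 in DESeq2 and 11194 in limma-voom. Leaving out 1 library at a time gave 10601 to 11578, the highest without untreated replicate 3. The scaling moved the split: 3656 genes were higher with library size alone, and 663 and 520 rose at least 2-fold with upper-quartile factors and library size alone, against 1020. With a filter of 1 CPM in 3 libraries 665 rose at least 2-fold, with fewer genes tested. With a minimum fold of 1.2, the genes that differ between 6 h and 3 h numbered 2504, against 6871. The median of the Wnt feedback list was 0.055 with the 1 CPM filter and -0.40 in the result reported, since fewer of its genes were tested, and that of the clock list was -0.036 with library size alone and 0.20 in the result reported.

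With library size alone the fitted log2 values of 6 small rises turned below 0 and did not pass: ETS1 -0.0051, FOXO1 -0.022, HLA-DPA1 -0.058, JUNB -0.038, KLF13 -0.036 and PIK3IP1 -0.023. HLA-DRA, which did not pass with TMM factors, fell with library size alone (-0.22) and upper-quartile factors (-0.13). Of 4436 values of named genes under the alternatives, 87 no longer passed, 3 passed where they had not before and 8 turned. The other 4338 kept their side of the threshold, and those that passed kept their direction. For values that passed in neither setting a change of sign was not counted. No paired analysis was possible because the replicate numbers (1 to 3, 5 to 7 and 9 to 11) are shared by no groups. At this depth a count of 0 in 1 library allows up to 0.0692 CPM, so genes under the filter on low counts were not resolved.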

Other observations

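Some gene groups not described above were divided. Of 48 lysosome and autophagy genes 19 were higher and 21 lower (median -0.12; library size alone: higher 10, lower 28). The lysosomal enzymes GAA and NAGLU fell 3.03-fold and 2.64-fold, the autophagy kinase ULK1 3.24-fold, and ATP6V1D, a subunit of the proton pump, rose 2.11-fold. Of 36 genes of mTOR and growth control 14 were higher and 14 lower (library size alone: higher 9, lower 21). DEPTOR, an inhibitor of mTOR, went from 158, 159.7 and 156 CPM to 101, 99.7 and 112 CPM (1.52-fold lower), CASTOR1, an arginine sensor, from 1.43, 1.39 and 1.71 CPM to 0.0851, 0.0657 and 0.161 CPM, and the ribosomal protein kinase RPS6KB1 rose 1.75-fold.

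The clock list had 5 of 11 genes higher and 5 lower, with the PAR bZIP factors TEF and DBP in opposite directions. TEF went from 19.3, 19.9 and 16.4 CPM to 44.4, 43 and 44.8 CPM (2.38-fold higher), and DBP from 16.9, 17 and 19.9 CPM to 5.96, 5.78 and 6.62 CPM (2.93-fold lower). Of 9 genes of cholesterol efflux and LXR 7 were lower and 2 higher, with the efflux pump ABCG1 3.01-fold lower and ABCA1 1.97-fold lower. Of 22 NRF2 targets 9 were higher and 4 lower (library size alone: higher 7, lower 9), among them PRDX1 (1.79-fold higher), a peroxidase, and KEAP1, the inhibitor of NRF2 (1.78-fold higher).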
